A study of Mus musculus with 8 samples.

Results

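The enzymes described here attach a polar group to drugs, bilirubin, steroids and bile acids, the second phase of detoxification. They were the 64 genes of the UGT family (20 UDP-glucuronosyltransferases), the SULT family (19 sulfotransferases) and the GST family (25 glutathione transferases, 3 of them microsomal Mgst genes), chosen by gene symbol alone from the 25489 symbols in the files. UGT enzymes sit in the endoplasmic reticulum and transfer glucuronic acid from UDP-glucuronate, SULT enzymes are cytosolic and transfer sulfate from PAPS, and GST enzymes conjugate glutathione to electrophiles. Liver is the main site of all these reactions, and hepatocytes hold most of the enzymes.

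Livers came from male C57BL/6 mice that had received a high-fat diet (45% of energy from fat) from 8 weeks of age, alone (the HF group, M group in the study) or together with betaine at 2% (w/v) in their water (the HB group, B group in the study), and were collected at 25 weeks of age. Betaine is trimethylglycine, a methyl donor. RNA-seq measured polyadenylated mRNA and Ribo-seq measured ribosome-protected fragments (RPFs), the pieces of mRNA that a translating ribosome shields from nuclease. Each assay had 2 libraries per group (HF1, HF2, HB1 and HB2). The study speaks of single mice and the labels of pooled RNA preparations, so the library is the unit here, and p-values here measure the spread between libraries, which may be partly technical. Mice on a standard diet were not analysed here.

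Values are RPKM, the reads of a gene per kilobase of its length, scaled to the number of reads in the library. RNA-seq libraries held 11661207 to 22543471 reads and Ribo-seq libraries 141890 to 1056546, as recovered from the steps of the RPKM values. Library HB2 had the fewest RPF reads, and 18 of the 44 members tested in RPF had at most 3 reads there, against 7 in HF1, 4 in HF2 and 9 in HB1. All 6 hepatocyte markers were present, with a summed mRNA level of 45451 to 50185 RPKM, and the 6 cholangiocyte markers summed to 5.79 to 15.4 RPKM. Krt7 and Epcam were at 0 in every RPF library. The 6 erythroid markers summed to 675 and 523 RPKM in HF mRNA and 738 and 2249 RPKM in HB mRNA, and the 6 stellate cell markers to 31.2 and 30.5 RPKM in HF mRNA and 68.4 and 39.5 RPKM in HB mRNA, the latter mostly from Dcn, a gene of the extracellular matrix. In RPF the erythroid sums overlapped between groups and the stellate sums were lower in HB (128 and 107 RPKM in HF, 87.2 and 82.2 RPKM in HB). Their part in the results on the members was not tested. In whole liver, fewer cells of a type and less RNA per cell cannot be told apart.

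The 8 Ugt1a genes need a remark before their values. They lie on the plus strand of chromosome 1 (GRCm38, the mm10 build of the study) as a row of first exons that splice to the same 4 last exons, which begin at position 88215044. In the GENCODE M21 coding transcripts with 5 exons, those exons made up 57.9% of the Ugt1a6a transcript and 59.9% of the Ugt1a9 transcript, the lowest and highest shares apart from Ugt1a7c. For Ugt1a7c it was 71.7%, but its last exon ends at 88220002 and the others at 88218997 to 88219004. Part of that exon is thus not in the other transcripts used. The exons were identical between all 28 pairs of genes over the 1311 to 1318 bases compared. The junctions are shown because a read from the shared bases tells the genes apart only if it reaches the first exon. Each line gives the last 15 bases of the gene's own first exon in lower case and the first 15 bases of the shared exon in capitals, 5′ to 3′.

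Ugt1a10, first exon chr1:88055411-88056336: aagccactttccaagGAATTTGAAGCCTAT

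Ugt1a9, first exon chr1:88070800-88071678: aagtcactttccaagGAATTTGAAGCCTAT

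Ugt1a7c, first exon chr1:88095064-88095978: aagccactttccaagGAATTTGAAGCCTAT

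Ugt1a6b, first exon chr1:88106862-88107799: ggaaagctgactcagGAATTTGAAGCCTAT

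Ugt1a6a, first exon chr1:88138378-88139331: ggaaagctgactcagGAATTTGAAGCCTAT

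Ugt1a5, first exon chr1:88166012-88166903: aagcccctctctcagGAATTTGAAGCCTAT

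Ugt1a2, first exon chr1:88200601-88201500: aagcccctctctcagGAATTTGAAGCCTAT

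Ugt1a1, first exon chr1:88211959-88212871: aagcccctatcccagGAATTTGAAGCCTAT

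These 30 bases were identical between Ugt1a10 and Ugt1a7c, between Ugt1a6b and Ugt1a6a, and between Ugt1a5 and Ugt1a2. Over the whole transcript, 58.6% of the 28-base words of Ugt1a1 and 97.8% of those of Ugt1a6a also occurred in another annotated gene, against a median of 2.43% for the GST members and 2.86% for the SULT members. The lowest Ugt1a share was 43.8%, for Ugt1a7c. Single members outside Ugt1a also had high shares, such as Ugt2b5 (59.2%), Gstp1 (69.2%), Gsta1 (92.9%) and Sult2a2 (77.2%). A length of 28 bases is about that of an RPF. How the authors assigned reads that fit several genes is not given in the sources used here. The values of single Ugt1a genes, and of other members with high shares, are therefore uncertain.

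At the level of whole families, UGT and GST mRNA was higher and SULT mRNA lower in HB. Summed UGT mRNA was 964 and 1085 RPKM in HF1 and HF2 and 1650.0 and 1170.0 RPKM in HB1 and HB2. Summed GST mRNA was 5997 and 5947 RPKM in HF against 7935 and 8089.6 RPKM in HB, 1.34 times the HF mean. Summed SULT mRNA was 887 and 813 RPKM in HF against 614 and 538 RPKM in HB, 0.677 times the HF mean. The groups did not overlap in any of the 3 sums. Such a separation was common: both HB mRNA values lay above both HF values for 24.8% of all tested genes and below them for 43.3%. The family sums were not tested and are given as a description.

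As deposited, RPF sums did not separate the groups. The UGT sum was 1410.3 and 1653 RPKM in HF and 1396 and 1927 RPKM in HB. For GST it was 3426 and 4415 RPKM in HF and 5893 and 3875 RPKM in HB. The SULT sum was 529 and 585 RPKM in HF and 411 and 603 RPKM in HB. In each family the HF values lay within the HB range or overlapped it. This depends on the scaling. With RPKM rescaled to a common sum, the log2 ratios of HB to HF were -0.77 for UGT, -1.03 for SULT and -0.46 for GST. The UGT and SULT sums were then lower in both HB libraries than in both HF libraries, and the GST sums still overlapped.

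**Figure D1:**
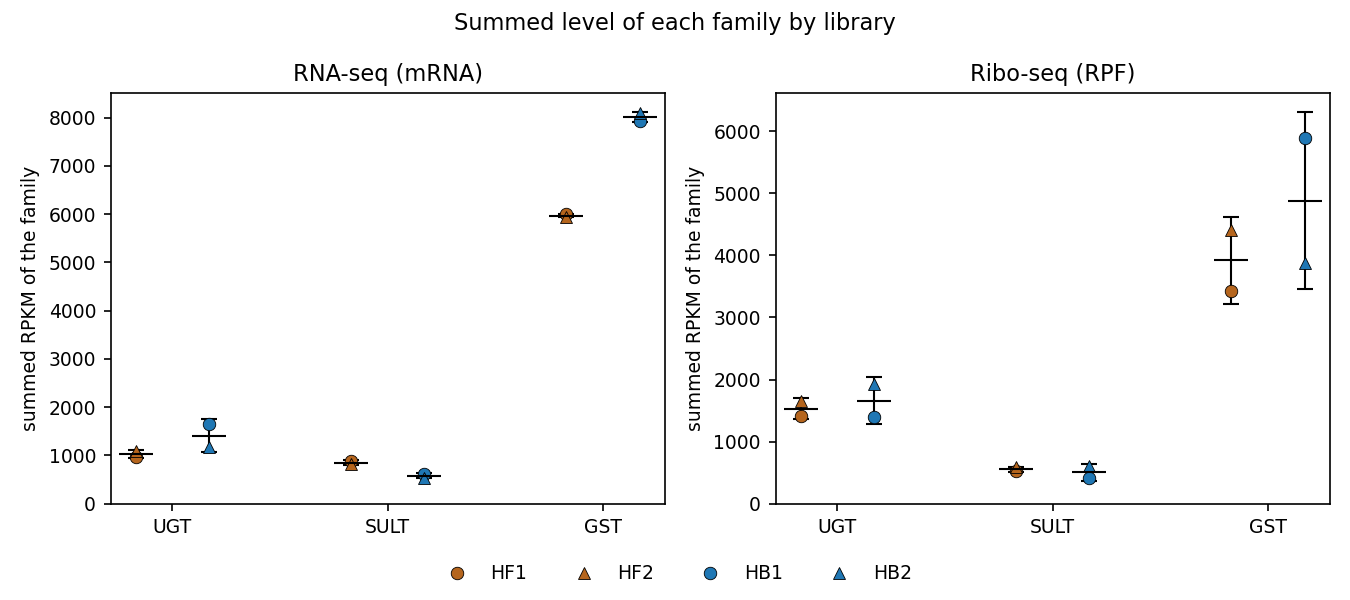
Summed RPKM of the UGT, SULT and GST members in each RNA-seq library (left) and Ribo-seq library (right), with circles for replicate 1, triangles for replicate 2, a horizontal mark for the mean of 2 libraries and bars for the SD. The HB libraries lie above HF for UGT and GST mRNA and below HF for SULT mRNA, while the groups overlap in every RPF sum.

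Of the 64 members, 45 had a mean of at least 1 RPKM over the RNA-seq libraries and were tested. Of these, 5 passed only through HB, with an HF mean under 1 RPKM (Ugt1a5, Ugt1a9, Ugt2b37, Ugt2b38 and Sult2a7), so they had to be higher in HB, and the counts and medians below describe the members that passed and are not support for a change. The median log2 fold change (HB against HF, on the log2(RPKM + 1) scale) was 0.68, beside -0.19 over all 10687 genes tested, and 36 of the 45 had a value above 0, beside 39.8% of all genes. With the thresholds of the study (an absolute log2 fold change over 1 with p under 0.001, unadjusted and here from limma), 5 members rose and 0 fell, beside 2.3% of all tested genes called higher and 6.56% called lower. At a Benjamini-Hochberg adjusted p under 0.05 with the same fold change, limma called 16 members higher and 2 lower, beside 5.01% and 12.7% of all genes. Unadjusted p was under 0.05 for 23 members that were higher and 4 that were lower, beside 1382 and 2947 of all genes. With the thresholds of the study, voom on the recovered reads called 9 members higher and 0 lower, beside 392 and 407 of 10685 genes.

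Both HB values lay above both HF values for 30 of the 45 members, where 24.8% of all genes did so, and below them for 6, where 43.3% of all genes did so. By family, the median mRNA log2 fold change was 1.02 for 16 UGT members, 0.68 for 22 GST members and -0.39 for 7 SULT members. With a minimum of 5 RPKM the UGT median was 0.54, and without HB1 it was 0.69. The UGT and GST medians stayed above 0 and the SULT median below 0 under every alternative run. The choice of scaling moves the calls, however. A shift of all log2 values to a common median, which adds 0.27 to each mRNA fold change, gave 13 members higher and 0 lower, beside 540 and 291 of all genes (246 and 701 as deposited), and without the filter on low values 1 member, Gstm4, was called higher.

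The picture for RPF was different in size. Of 44 members tested, 1 rose and 3 fell with the study's RPF thresholds (an absolute log2 fold change over 1 with p under 0.05, unadjusted and from limma), beside 1.58% of all 11190 genes called higher and 7.86% called lower. Of these 4, Sult5a1, Sult2a7 and Gsta2 passed the filter only through the group where they are high, and with a minimum of 5 RPKM the counts were 0 and 0. No member passed an adjusted p under 0.05 in limma, where 4 had an unadjusted p under 0.05, nor in voom, which called 4 higher and 1 lower by unadjusted p, beside 581 and 469 of 11187 genes. The RPF median was -0.01 over the members and -0.43 over all genes tested. The log2 fold change was above 0 for 21 members and below 0 for 23, beside 29.6% and 70.4% of all genes, and both HB values lay below both HF values for 8 members, beside 33.2% of all genes. Family medians were -0.00 for UGT, -0.17 for SULT and 0.03 for GST, and these signs depend on the scaling: all 3 medians were negative with RPKM rescaled to a common sum (-0.85, -1.04 and -0.84) and positive with a common median (0.32, 0.15 and 0.36). Over all genes the RPF calls were 42 higher and 2816 lower with a common sum and 349 and 421 with a common median, beside 177 and 879 as deposited.

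Translation efficiency (TE), the RPF RPKM over the mRNA RPKM, was tested for 42 members as log2((RPF + 1)/(mRNA + 1)). With the study's thresholds (beyond 2 and an unadjusted p under 0.05, from limma), TE rose for 1 member and fell for 5, beside 1.49% and 4.6% of all 9455 genes. None passed an adjusted p under 0.05 in limma, where 8 had an unadjusted p under 0.05, beside 1154 of all genes, and 1 did in voom (Ugt1a1, lower), beside 20 higher and 43 lower of 9452 genes. The TE median was -0.87 for UGT, -0.31 for GST and 0.25 for SULT, beside -0.35 over all genes, and the SULT value turned to -0.57 with a common sum. TE was higher in HB for 12 members, beside 36.8% of all genes, and lower for 30, beside 63.2%. By family it was lower for 14 of 15 UGT, 14 of 20 GST and 2 of 7 SULT members. That UGT count includes Ugt1a5, Ugt1a9 and Ugt2b37, which passed the mRNA filter only through HB. Of the called members, Ugt1a5 and Sult2a7 passed the mRNA filter only through HB, and Sult5a1 passed the RPF filter only through HB. This selection favours the direction called, so these calls are not support for a change. With a minimum of 5 RPKM, 0 members were called higher in TE and 3 lower.

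**Figure D2:**
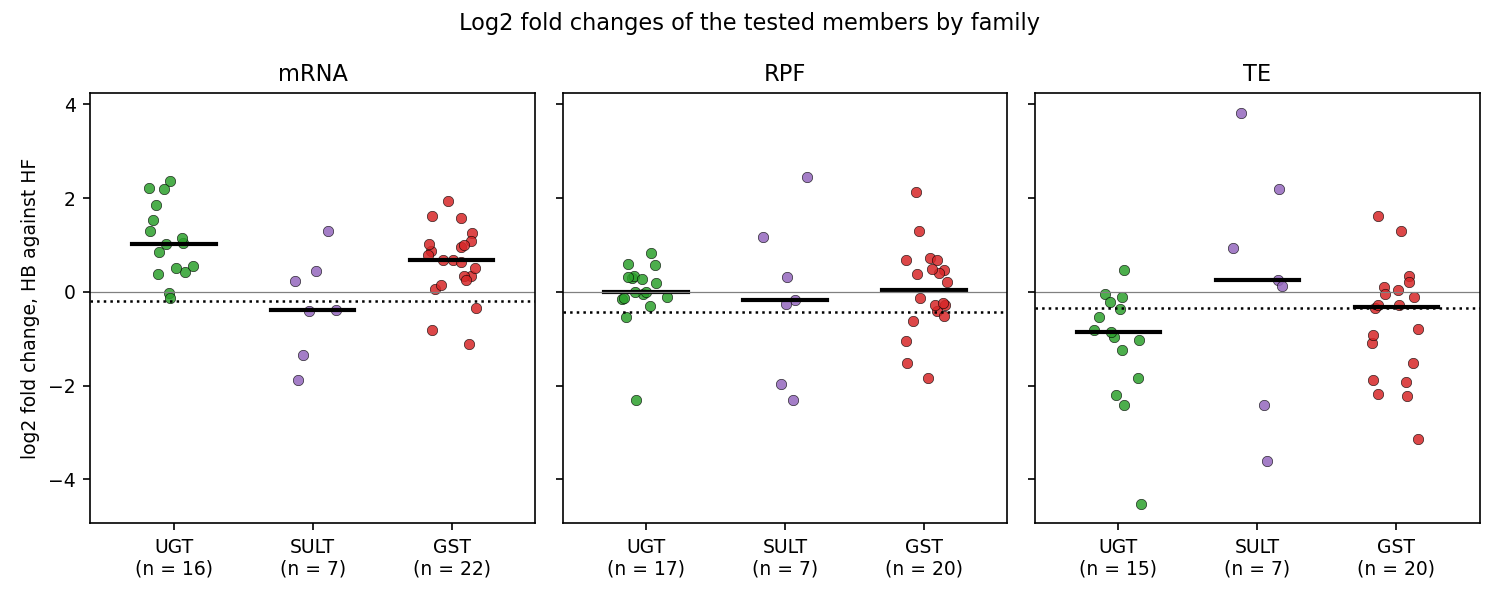
Log2 fold change (HB against HF) of each tested member in mRNA, RPF and TE, by family, with the family median as a thick line and the median of all tested genes as a dotted line. In mRNA the UGT median (1.02) and GST median (0.68) lie above the dotted line at -0.19, and in TE the UGT median (-0.87) lies below the one at -0.35.

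Among the UGT members, the genes that rose in mRNA were Ugt1a1, Ugt1a6a and Ugt3a1. UGT1A1 conjugates bilirubin. The mRNA level of its gene was 5.39 and 8.67 RPKM in HF1 and HF2 and 68.5 and 22.7 RPKM in HB1 and HB2. Its RPF level was 89.4, 92.0, 68.7 and 113 RPKM in the same order. The groups were well apart in mRNA and overlapped in RPF. The mRNA log2 fold change was 2.37 ± 0.45 (SE, n = 2 per group, limma adjusted p = 0.00773), the RPF log2 fold change -0.04 ± 0.35 (limma adjusted p = 0.971) and the TE log2 change -2.41 ± 0.80 (limma unadjusted p = 0.0232, adjusted p = 0.364). Without HB1 the mRNA value was 1.59 and without HB2 it was 3.14, both called. The TE call was lost without the HF1 libraries (-2.13) and without the HB1 libraries (-1.27). RPF reads numbered 426 in HF and 109 in HB, a ratio of rates of 0.926 with an exact 95% interval of 0.744 to 1.15, which covers counting error only.

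Ugt1a6a, whose product conjugates small planar phenols, had the same form. Its mRNA level was 0.675 and 1.82 RPKM in HF and 15.4 and 5.01 RPKM in HB, and its RPF level was 20.3 and 27.5 RPKM in HF and 20.0 and 27.7 RPKM in HB. The mRNA groups were apart and the RPF groups lay on top of each other. The log2 change was 2.19 ± 0.44 in mRNA (limma adjusted p = 0.00928), -0.00 ± 0.39 in RPF (limma adjusted p = 0.998) and -2.20 ± 0.71 in TE (limma unadjusted p = 0.0204, adjusted p = 0.364). Without HB1 its mRNA log2 fold change was 1.47 and no longer passed the study's threshold, and its TE call was lost without HF1 (-2.03), HF2 (-2.36) or HB1 (-1.24).

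Ugt1a5 was low in mRNA, at 0.0535 and 0.237 RPKM in HF (2 and 9 reads) and 10.95 and 1.34 RPKM in HB (792 and 78 reads). Its RPF level went the other way, at 8.03 and 8.26 RPKM in HF (10 and 28 reads) and 2.43 and 0 RPKM in HB (2 and 0 reads). The groups did not overlap in either assay. It passed the mRNA filter only through HB and, without HB1, did not pass it. The mRNA log2 fold change was 2.21 ± 0.58 (limma unadjusted p = 0.00366, adjusted p = 0.0224), and the ratio of pooled RPF rates, HB to HF, was 0.191 (exact 95% interval 0.0223 to 0.737, counting error only). It was called lower in RPF (limma unadjusted p = 0.0395, adjusted p = 0.493) and in TE (log2 change -4.52 ± 0.50, limma unadjusted p = 9.99e-05, adjusted p = 0.328). The RPF call was lost without HF1 (-2.32), without HF2 (-2.29), with a pseudocount of 0.1 and with a common median. With that pseudocount the TE value was -8.17, so its size depends on the constant added to low values.

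The other Ugt1a genes were measured as follows. Ugt1a2 was the most abundant, with an mRNA level of 177, 195, 275 and 227 RPKM in HF1, HF2, HB1 and HB2 and an RPF level of 237, 236, 184 and 257 RPKM. Its mRNA groups did not overlap, yet the log2 fold change of 0.43 ± 0.26 did not pass (limma adjusted p = 0.253). Ugt1a6b mRNA was 0.636 and 1.88 RPKM in HF against 11.99 and 3.69 RPKM in HB (log2 fold change 1.85 ± 0.45, limma adjusted p = 0.017). Ugt1a9 mRNA was 0.213 and 0.447 RPKM in HF against 6.17 and 1.05 RPKM in HB (log2 fold change 1.53 ± 0.47, limma adjusted p = 0.0384). Ugt1a9 passed the filter only through HB and did not pass it without HB1, and Ugt1a6b was at 1.11 without HB1. Ugt1a6b and Ugt1a9 had an unadjusted p above the study's mRNA threshold, and had RPF values in which the groups overlapped. Ugt1a10 rested on 3 to 15 mRNA reads a library and Ugt1a7c on 0 to 7, too few to be tested in mRNA. In all 6 tested Ugt1a genes the mRNA values of HB1 were the highest of the 4 libraries.

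The split of reads among these genes differed between the assays. Ugt1a2 took 96.2% of the Ugt1a mRNA reads in HF1 (Wilson 95% interval 95.8% to 96.7%), 93.9% in HF2 (93.3% to 94.4%), 71.2% in HB1 (70.7% to 71.8%) and 87.2% in HB2 (86.7% to 87.7%). In RPF it took 63.9% (59.4% to 68.1%), 63.4% (60.7% to 66.1%), 63.6% (57.3% to 69.4%) and 61.9% (54.8% to 68.5%). The mRNA share was lower in both HB libraries than in both HF libraries, and the RPF shares were close to each other. In HF the TE level of the 6 tested Ugt1a genes, RPF RPKM over mRNA RPKM, ranged from 1.27 for Ugt1a2 to 92.5 for Ugt1a5, with a median of 16.6 beside 1.09 over all genes. With counts of 2 to 71 mRNA reads in HF for Ugt1a5 and Ugt1a6a, such ratios are imprecise. Ugt1a5 and Ugt1a9 also passed the mRNA filter only through HB, with HF means of 0.145 and 0.330 RPKM. That selection favours high HF ratios, and the median includes both genes. The part that the assignment of shared reads has in these values was not tested.

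Summing the 8 Ugt1a genes sets aside the split of reads among them. The summed mRNA was 184 and 208 RPKM in HF and 388 and 261 RPKM in HB. The summed RPF was 371 and 370.5 RPKM in HF and 291 and 415 RPKM in HB. As 1 feature, Ugt1a had an mRNA log2 fold change of 0.70 ± 0.29 (limma unadjusted p = 0.0373, adjusted p = 0.1), an RPF log2 fold change of -0.09 ± 0.29 (limma adjusted p = 0.915) and a TE log2 change of -0.79 ± 0.58 (limma adjusted p = 0.602). The groups did not overlap in mRNA, and no call was made in any measure.

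**Figure D3:**
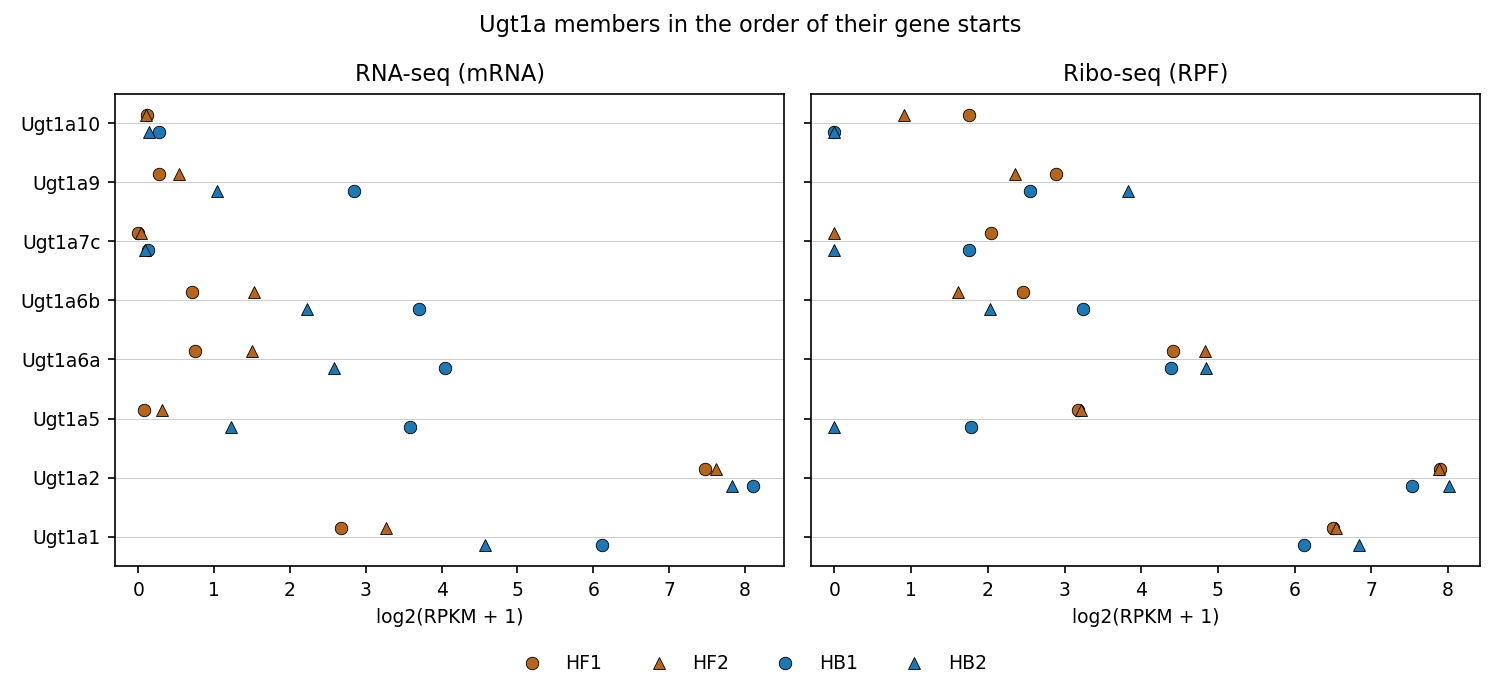
Level of each Ugt1a gene, as log2(RPKM + 1), in the RNA-seq (left) and Ribo-seq (right) libraries, listed in the order of their gene starts. In mRNA the HB points lie to the right of the HF points for every gene drawn, and in RPF the points of Ugt1a1, Ugt1a2 and Ugt1a6a overlap between groups.

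Ugt3a1 (chr15:9276888-9315032, plus strand), which uses UDP-N-acetylglucosamine as a sugar donor, had an mRNA level of 17.4 and 21.7 RPKM in HF and 52.5 and 46.4 RPKM in HB. Its RPF level was 40.1 and 41.3 RPKM in HF and 17.3 and 43.9 RPKM in HB. The mRNA groups were apart, and in RPF only HB1 stood away from the rest. The log2 change was 1.30 ± 0.25 in mRNA (limma adjusted p = 0.00834) and -0.54 ± 0.52 in RPF (limma adjusted p = 0.709), and in TE it was -1.84 ± 0.67 (limma unadjusted p = 0.0334, adjusted p = 0.378), short of the TE threshold. Without HF1 the mRNA value was 1.15 and the call was lost.

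Of the 5 UGT genes with the highest mRNA level, all but Ugt1a2 belonged to the Ugt2 group, which handles steroids, bile acids and drugs. Ugt2b5, which shares 59.2% of its 28-base words with other genes, had mRNA levels of 214 and 248 RPKM in HF and 373 and 303 RPKM in HB (log2 fold change 0.54 ± 0.27, limma adjusted p = 0.162). Ugt2a3 mRNA was 69.6 and 72.5 RPKM in HF and 116 and 73.1 RPKM in HB (log2 fold change 0.37 ± 0.29, limma adjusted p = 0.357). The HB values were the higher ones in both genes, by a margin too small for the test. Ugt2b36 (271, 320.2, 289.5 and 246 RPKM in HF1, HF2, HB1 and HB2) and Ugt2b34 (113, 97.4, 147 and 73.2 RPKM) overlapped between groups, with log2 fold changes of -0.14 ± 0.27 and -0.02 ± 0.34 (limma adjusted p = 0.718 and 0.975). Their signs were not stable, since both turned positive when the log2 values were shifted to a common median. Outside Ugt1a, the 10 tested UGT genes had a median mRNA log2 fold change of 0.69.

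In the RPF of these abundant genes the libraries also overlapped. Ugt2b5 had 238 and 312 RPKM in HF and 205 and 465 RPKM in HB. For Ugt2b34 the RPF level was 177 and 203 RPKM in HF and 142 and 210.4 RPKM in HB. Of these 3, Ugt2b36 alone kept its groups apart, with 154 and 168 RPKM in HF and 194 and 209 RPKM in HB, which was no call. One further UGT gene, named after its values were seen, was listed differently in the assays. Ugt2a2 had RPF levels of 16.3, 8.96, 13.8 and 16.7 RPKM and was listed at 0 in all 4 mRNA libraries. Its transcript shares 69.5% of its 28-base words with Ugt2a1, which overlaps it on chromosome 5.

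The SULT family was carried by a few genes. Of its 19 members, 9 were listed at 0 in every library of both assays, and 7 were tested in mRNA. Sult1a1, the main phenol sulfotransferase, made up 51.9% of the summed SULT mRNA, and Sult2a8, a hepatic member of the hydroxysteroid class, made up 68.9% of the summed RPF. Sult1a1 mRNA was 456 and 391 RPKM in HF and 282 and 352 RPKM in HB, with no overlap (log2 fold change -0.42 ± 0.28, limma adjusted p = 0.279). Its RPF level of 82.9 and 123.2 RPKM in HF and 104 and 77.4 RPKM in HB overlapped. Sult2a8 overlapped in mRNA (221, 296, 260.4 and 145 RPKM in HF1, HF2, HB1 and HB2, log2 fold change -0.39 ± 0.33, limma adjusted p = 0.397) and in RPF (395, 391, 245 and 437 RPKM).

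Sult1d1, which sulfates catecholamines and other phenols, showed the largest mRNA decrease of the 45 tested members. In mRNA it was at 189 and 77.2 RPKM in HF and 50.6 and 20.4 RPKM in HB. The RPF level was 25.8 and 47.0 RPKM in HF and 32.5 and 58.9 RPKM in HB. The libraries of a group differed by more than 2-fold in mRNA, though the groups did not overlap, and in RPF they did. The mRNA log2 fold change was -1.88 ± 0.48 (limma unadjusted p = 0.00294, adjusted p = 0.0197), past the adjusted threshold and short of the study's, which it passed under some alternatives, such as leaving out HF2 (-2.52) or HB1 (-2.51). Without HF1 or HB2 the value was -1.23 or -1.24. Sult1e1, the estrogen sulfotransferase, named after its values were seen, lay just under the filter. Its mRNA level was 2.25 and 1.34 RPKM in HF (33 and 20 reads) and 0.106 and 0.263 RPKM in HB (3 and 6 reads), and it was not tested.

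Sult5a1 and Sult2a7 were called on very few RPF reads. Sult5a1 (chr8:123140192-123158315, minus strand), a poorly characterised member, had an mRNA level of 10.6 and 40.0 RPKM in HF and 5.66 and 9.92 RPKM in HB, and an RPF level of 0 and 0.816 RPKM in HF (0 and 1 reads) and 6.71 and 6.08 RPKM in HB (2 and 1 reads). It was lower in both HB mRNA libraries (log2 fold change -1.36 ± 0.50, limma adjusted p = 0.0715) and was called higher in RPF (log2 fold change 2.45 ± 0.67, limma unadjusted p = 0.0156, adjusted p = 0.493) and in TE (3.81 ± 0.88, limma unadjusted p = 0.00463, adjusted p = 0.334). The ratio of pooled RPF rates was 10.9, with an exact 95% interval of 0.872 to 570.2 that includes equal rates, and without HF1 the RPF call was lost. In Sult2a7 the mRNA was 0 and 0.471 RPKM in HF and 2.62 and 1.48 RPKM in HB (0, 5, 53 and 24 reads, log2 fold change 1.30 ± 0.28, limma adjusted p = 0.0114), where it passed the filter only through HB, and the RPF was 2.87 and 5.28 RPKM in HF (1 and 5 reads) and 0 in both HB libraries. An RPF count of 0 allows up to 8.38 RPKM over the HB libraries together, more than the 4.63 RPKM of the pooled HF reads, so no fold is given although limma called it lower in RPF and TE. Sult1b1, which conjugates thyroid hormones and small phenols, had HB values just above HF in mRNA, at 5.53, 3.70, 7.75 and 5.56 RPKM (log2 fold change 0.45 ± 0.28, limma adjusted p = 0.253). In RPF its HB values were below HF, at 12.7, 11.5, 10.3 and 0 RPKM (13, 32, 7 and 0 reads), with no call in limma, and voom called its TE lower.

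Within the GST family, Gstm4 and Gstm7 rose in mRNA. Both belong to the mu class, which lies as a cluster on chromosome 3, Gstm4 at chr3:108040408-108044894 and Gstm7 at chr3:107926334-107931817, both on the minus strand. Gstm4 mRNA was 6.50 and 9.42 RPKM in HF and 37.9 and 28.5 RPKM in HB, and its RPF level was 26.4 and 26.5 RPKM in HF and 31.9 and 14.4 RPKM in HB. The mRNA groups were far apart, and the HB footprints lay on either side of the HF ones. The log2 change was 1.94 ± 0.28 in mRNA (limma adjusted p = 0.00525), -0.29 ± 0.48 in RPF (limma adjusted p = 0.838) and -2.22 ± 0.54 in TE (limma unadjusted p = 0.0062, adjusted p = 0.334). Its mRNA call held under all 15 alternatives run for it, while the TE call was lost without HF1 (-1.99) or HB2 (-1.88). The ratio of pooled RPF rates was 0.970 (exact 95% interval 0.509 to 1.74, counting error only), from 56 reads in HF and 15 in HB.

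Gstm7 mRNA was 15.2 and 10.8 RPKM in HF and 46.3 and 35.2 RPKM in HB, and its RPF level was 24.6 and 21.8 RPKM in HF and 30.9 and 11.2 RPKM in HB. As with Gstm4, only the mRNA groups were apart. The log2 change was 1.58 ± 0.28 in mRNA (limma adjusted p = 0.00647), -0.29 ± 0.57 in RPF (limma adjusted p = 0.856) and -1.87 ± 0.62 in TE (limma unadjusted p = 0.023, adjusted p = 0.364). Without HF2 the mRNA value was 1.35 and the call was lost. Of the 7 mu class genes, all 7 had an mRNA log2 fold change above 0 (median 1.09) and 6 had HB values above both HF values, where 39.8% and 24.8% of all genes did so. The exception was Gstm1, the most abundant one, with 1019, 869, 969 and 1002 RPKM in HF1, HF2, HB1 and HB2 (log2 fold change 0.07 ± 0.28, limma adjusted p = 0.885). Words of 28 bases shared with other genes made up 5.02% of the Gstm4 transcript, 3.56% of Gstm7 and 36.4% of Gstm1.

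The alpha class gene Gsta3 (chr1:21240589-21265661, plus strand), known in mouse liver for detoxifying an epoxide of aflatoxin, was the most abundant gene with an adjusted call. Its mRNA level was 455 and 449 RPKM in HF and 1262 and 914 RPKM in HB. The RPF level was 617 and 826 RPKM in HF and 1239 and 774 RPKM in HB. The mRNA groups were apart, whereas HB2 fell between the HF values in RPF. The mRNA log2 fold change was 1.25 ± 0.29 (limma unadjusted p = 0.00176, adjusted p = 0.015), past the adjusted threshold and short of the study's, which it passed under some alternatives, such as voom (1.48), a common median (1.52) and leaving out HB2 (1.48). All 4 alpha class genes had HB mRNA values above both HF values (median log2 fold change 0.91), as did 24.8% of all genes. One of them, Gsta2, had mRNA levels of 12.6 and 11.9 RPKM in HF and 17.95 and 13.8 RPKM in HB (log2 fold change 0.34 ± 0.25, limma adjusted p = 0.346). Gsta2 was called lower in RPF by limma on 1 and 2 reads in HF and 0 in both HB libraries. Since 0 reads allow 8.79 RPKM over the HB libraries and the HF reads pool to 2.43 RPKM, no fold is given. Gsta2 shares 78.3% of its words with other genes.

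Mgst1, the membrane-bound glutathione transferase of the endoplasmic reticulum and mitochondria, was the most abundant member in both assays. Its mRNA level was 2179 and 2149.8 RPKM in HF and 2753 and 2423 RPKM in HB, and its RPF level was 1503 and 2157 RPKM in HF and 2550.5 and 1677 RPKM in HB. The mRNA groups did not overlap, by a margin that did not pass the test (log2 fold change 0.25 ± 0.30, limma adjusted p = 0.554). Gstp1, the pi class gene, had mRNA levels of 658 and 1052 RPKM in HF and 1004 and 1663 RPKM in HB (log2 fold change 0.63 ± 0.36, limma adjusted p = 0.212) and RPF levels of 301 and 267 RPKM in HF and 569.9 and 388 RPKM in HB. It was 1 of 6 tested members whose RPF values in HB both lay above HF, where 9.07% of all genes did so, and was not called. Gstt1, a theta class gene, overlapped in mRNA (582, 413, 526 and 726 RPKM, log2 fold change 0.33 ± 0.31, limma adjusted p = 0.442) and in RPF (58.0, 104, 184 and 55.5 RPKM).

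Gstp2, a near copy of Gstp1, is named because it went the other way, after its values were seen. Its mRNA level was 28.9 and 30.5 RPKM in HF and 8.85 and 19.3 RPKM in HB (log2 fold change -1.12 ± 0.34, limma adjusted p = 0.0363), and it was listed at 0 in all RPF libraries. As 70.5% of its 28-base words occur in Gstp1, reads of these genes may have been split between them, which was not tested. Mgst3, a microsomal member, and Gstt2, of the theta class, also had both HB mRNA values below HF, and neither was called. Mgst3 was at 125 and 115 RPKM in HF and 57.8 and 79.9 RPKM in HB.

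**Figure D4:**
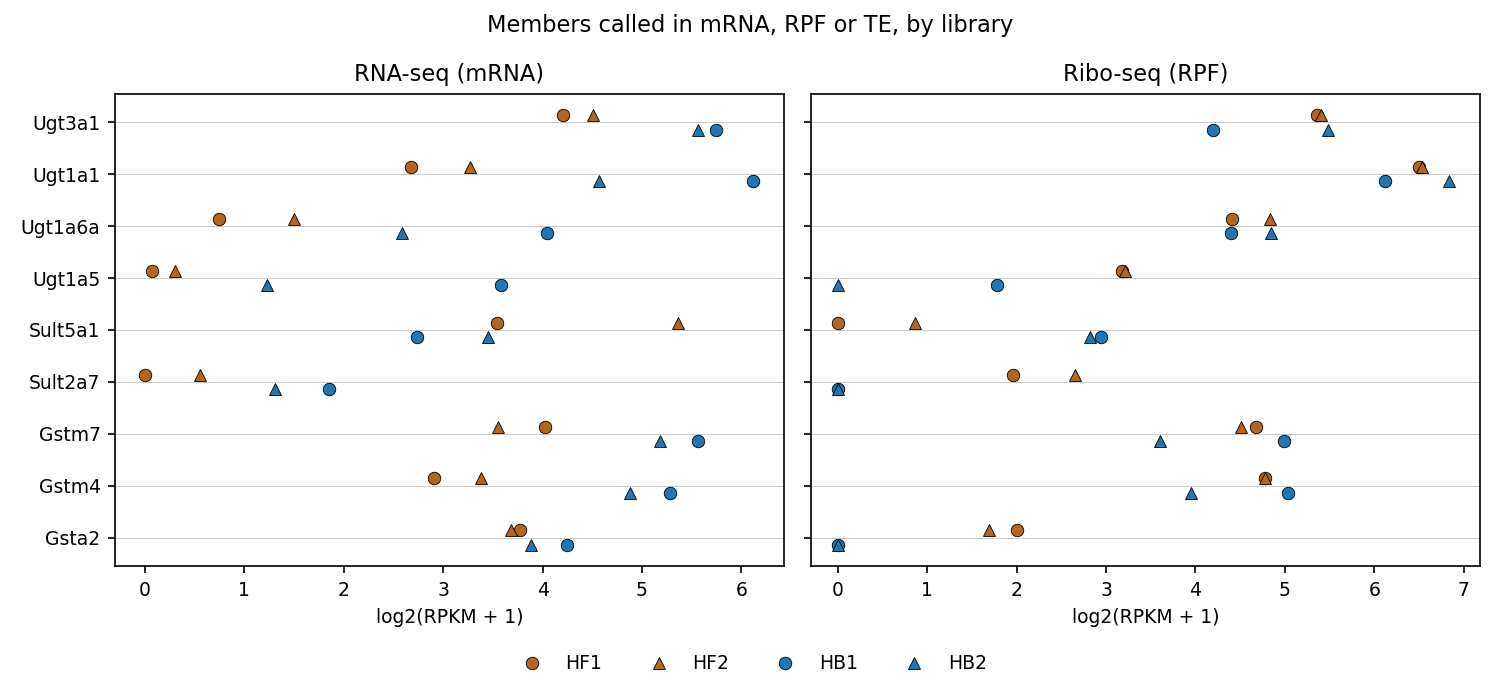
Level of the 9 members called in mRNA, RPF or TE, as log2(RPKM + 1), in the RNA-seq (left) and Ribo-seq (right) libraries, with HF in brown and HB in blue. The HB mRNA points of Ugt1a1, Ugt1a6a, Ugt3a1, Gstm4 and Gstm7 lie to the right of HF, while their RPF points overlap between groups, and Sult5a1, Sult2a7 and Gsta2 rest on 0 to 5 RPF reads a library.

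The 5 members that rose in mRNA were thus not called in RPF, where their log2 fold changes were between -0.54 and -0.00. Of these 5, 3 were called lower in TE. The difference between the assays was tested gene by gene with an interaction term over all 8 libraries, and the adjusted p of the interaction was 0.161 for Gstm4, 0.202 for Ugt1a1 and 0.241 for Ugt1a6a, so none passed an adjusted threshold. Family medians kept their signs in better covered genes. Among the 22 members with a mean of at least 25 RPF reads, a limit set after the data were seen, the UGT medians were 0.54 in mRNA, -0.01 in RPF and -0.82 in TE (11 genes), the GST medians 0.48, 0.39 and -0.17 (8 genes) and the SULT medians -0.42, -0.17 and 0.25 (3 genes).

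**Figure D5:**
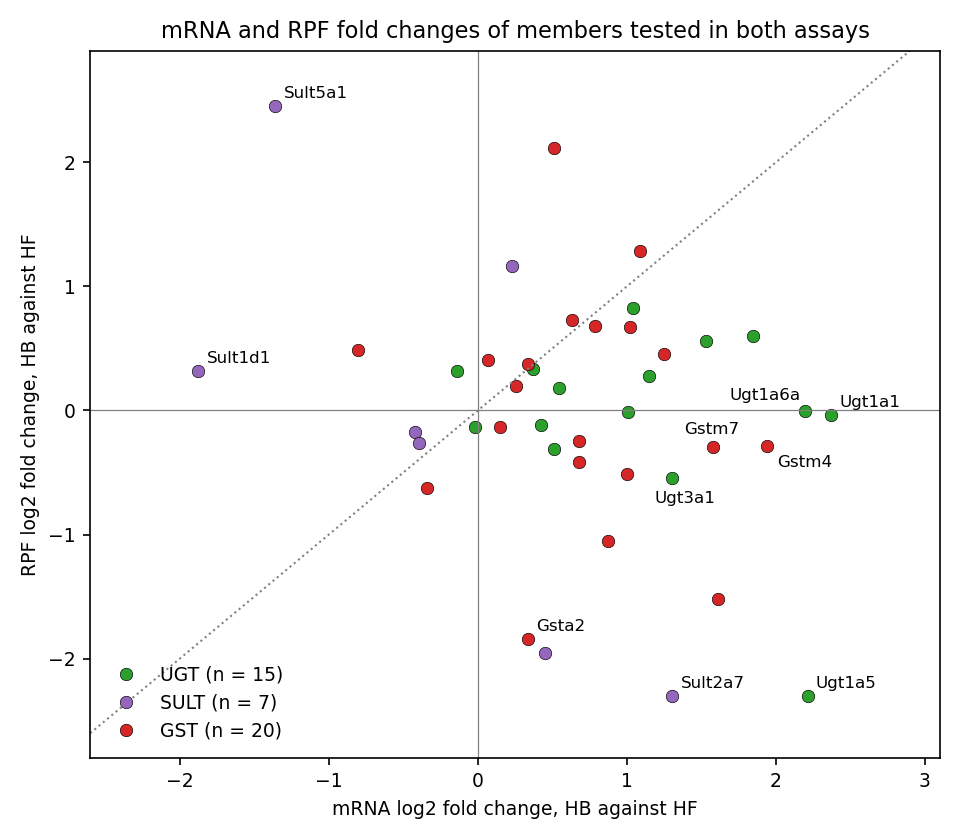
RPF log2 fold change against mRNA log2 fold change (HB against HF) of the 42 members tested in both assays, by family, with equal changes on the dotted line. The members that rose in mRNA, such as Ugt1a1 (2.37 and -0.04) and Gstm4 (1.94 and -0.29), lie to the right of 0. Their RPF values run from -0.54 (Ugt3a1) to -0.00 (Ugt1a6a).

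Within the HF group, the median TE of the UGT family lay above the medians of SULT and GST, while the levels of single members overlapped between all the families. The median TE of the tested members was 2.10 for UGT, 0.963 for SULT and 0.630 for GST, beside 1.09 over all genes. The SULT median leaves out Sult2a7, whose HF ratio could not be formed because its mRNA was 0 RPKM in HF1. The UGT median includes Ugt1a5, Ugt1a9 and Ugt2b37, which passed the mRNA filter only through HB. As summed RPF over summed mRNA, the ratio in HF was 1.49 ± 0.042 for UGT, 0.658 ± 0.087 for SULT and 0.657 ± 0.121 for GST (SD, n = 2). In HB it was 1.25 ± 0.566, 0.896 ± 0.320 and 0.611 ± 0.186. The UGT ratio was above the SULT and GST ratios in HF1, HF2, HB1 and HB2, and its HB libraries (0.846 and 1.65) enclosed the HF values. These are ratios of values per length, and the length used by the authors differed between the assays for some members, such as 635 bases in RNA-seq and 1097 bases in Ribo-seq for Mgst3, which leaves the comparison of HB with HF as it is.

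The genes that feed the reactions were followed through lists. Of the 7 genes that make and move UDP-sugars, 2 rose in mRNA and 0 fell (median log2 fold change 0.75, 6 of 7 above 0), beside 2.3% of all genes called higher, 6.56% called lower and 39.8% above 0. They were Pgm2, a phosphoglucomutase (51.1 and 45.9 RPKM in HF, 134 and 109.8 RPKM in HB, log2 fold change 1.31 ± 0.25, limma adjusted p = 0.0085), and Uxs1, which uses up UDP-glucuronate to make UDP-xylose (1.56 and 0.469 RPKM in HF, 6.11 and 3.59 RPKM in HB, log2 fold change 1.56 ± 0.33, limma adjusted p = 0.0105). Of 8 tested genes for PAPS supply and sulfate, 1 rose in mRNA, beside the same 2.3%. This was Suox, sulfite oxidase, which makes sulfate from sulfite (10.9 and 8.71 RPKM in HF, 66.6 and 32.9 RPKM in HB, log2 fold change 2.15 ± 0.34, limma adjusted p = 0.00526). Neither list had a call in RPF (6 and 9 genes tested) or in TE (6 and 8 genes tested).

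Of 14 tested genes of glutathione synthesis and use, 0 were called in mRNA, and in RPF 1 of 15 was called lower, beside 7.86% of all genes, a share close to that background. This was Gclm, the modifier subunit of the enzyme for the first step of glutathione synthesis (94.5 and 78.6 RPKM in HF, 48.8 and 34.0 RPKM in HB, log2 fold change -1.06 ± 0.33, limma unadjusted p = 0.0244, adjusted p = 0.493). Among the deconjugating enzymes, 1 of 7 was called lower in RPF, again a single gene beside that background. That was Gusb, the beta-glucuronidase that reverses glucuronidation (34.2 and 27.3 RPKM in HF, 15.2 and 5.50 RPKM in HB, log2 fold change -1.62 ± 0.57, limma unadjusted p = 0.0367, adjusted p = 0.493). Other conjugating transferases, such as N-acetyl and methyl transferases, had 0 of 14 called in mRNA and 0 of 13 in RPF. Of 9 transporters, 1 fell in mRNA, a single gene beside 6.56% of all genes, the uptake carrier Slco1a4 (33.3 and 30.0 RPKM in HF, 13.8 and 5.34 RPKM in HB, log2 fold change -1.75 ± 0.37, limma adjusted p = 0.0104).

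Regulators known to act on these families, which are transcription factors and the NRF2 repressor Keap1, had lower mRNA means on the log2 scale in HB. All 15 had a log2 fold change below 0, where 60.2% of all genes did so, with a median of -0.79 (11 of the 15 after a shift of the log2 values to a common median), and 3 fell with the study's threshold, beside 6.56% of all genes. Values of Maff, a partner of NRF2, overlapped between the groups (7.66, 5.14, 5.05 and 7.03 RPKM). Ahr, the dioxin receptor, was at 16.9 and 11.7 RPKM in HF and 3.77 and 5.95 RPKM in HB (log2 fold change -1.39 ± 0.29, limma adjusted p = 0.0106). Nfe2l2, which encodes NRF2, was at 93.9 and 110.0 RPKM in HF and 37.2 and 39.0 RPKM in HB (log2 fold change -1.39 ± 0.25, limma adjusted p = 0.00666). Nr1h4, which encodes the bile acid receptor FXR, was at 224 and 176 RPKM in HF and 47.2 and 63.6 RPKM in HB (log2 fold change -1.84 ± 0.28, limma adjusted p = 0.00526). The groups were apart in all 3 genes. In RPF, 0 of the 15 were called, with a median of -0.42 beside -0.43 over all genes.

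Promoters were searched because members of 2 families were higher together. RefSeq promoter windows (GRCm38.p6, 250 bases before to 50 after a start) matched 56 of the 64 members. The core of the antioxidant response element, TGACNNNGC on either strand, was in 4 of 23 GST promoters (Gsta3, Gstm5, Gstm7 and Mgst1), in 0 of 18 UGT and in 0 of 15 SULT promoters, beside 13.99% of all genes. The xenobiotic response element core, TNGCGTG, was in 3 of the 56, beside 5.84% of all genes. A 10-letter part of the HNF1 palindrome was in 3 UGT and 5 SULT promoters, beside 0.470% of all genes. Of those 5, 4 belong to Sult2a3, Sult2a4, Sult2a5 and Sult2a6, related genes listed at 0 in every library, so they are not separate examples. The 3 UGT promoters were those of Ugt1a1, Ugt1a9 and Ugt1a10, all of the same locus. In the windows of Ugt1a9 and Ugt1a10 the bases after the motif were identical, so these are not separate examples either. A match is only a description of these letters in this window. A match is shown for the most abundant member with an adjusted call and for the member with the highest mRNA log2 fold change on the log2(RPKM + 1) scale (as a plain ratio, others such as Ugt1a5, Ugt1a6a and Ugt1a9 were higher), with the motif in capitals.

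Gsta3, antioxidant response element core, plus strand, chr1:21240454-21240482: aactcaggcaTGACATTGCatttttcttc

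Ugt1a1, HNF1 letters read on the minus strand, chr1:88211904-88211933: gggcacaatcAATCATTAACtggttgcaca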

How the data were processed

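RNA-seq and Ribo-seq of mouse liver gave 2 libraries per group and assay. FANSe2 was the authors' mapper, mm10 their genome build and RPKM the unit of the values they deposited, and their study names edgeR for differential genes. How reads that fit several genes were assigned is not given in the sources used here. Groups came from the sample labels. The members and gene lists were chosen with earlier results of these data known.

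In RNA-seq, 4 entries whose symbol occurs more than once were not used. Whole reads came out of the RPKM steps for 99.97% of RNA-seq and 99.96% of Ribo-seq values above 0 (within 2e-05 reads, or a relative 8e-07), with totals of 11661207 to 22543471 and 141890 to 1056546. The low Ribo-seq totals limit the precision of RPF and TE. Genes with a mean of at least 1 RPKM over the 4 libraries of an assay (of both assays for TE) were tested on log2(RPKM + 1) with limma 3.58.1 in R 4.3.3 (trended variance, two-sided), and p-values were adjusted by Benjamini-Hochberg over all tested genes. A count test was not the first choice because the deposited unit is RPKM. TE paired libraries of the same number. Across genes, the deviations of those libraries were hardly related between RNA-seq and Ribo-seq (correlation -0.002 in HF and -0.077 in HB). The TE errors and p-values should therefore not be taken as those of matched samples. TE levels are plain ratios of RPKM. The fits were also run on simulated data, and the outcome is not reported here.

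Members named are all those called in any measure, the 5 with the highest mean mRNA RPKM in each family and all Ugt1a genes, and for the pathway lists the called genes. Settings changed in turn were the filter (none, or a minimum of 5 RPKM), the pseudocount (0.1), the scaling (a common sum of RPKM, or a common median of log2 values) and the variance trend (none). Further ones were a replicate block, voom with TMM on the recovered reads, merged Ugt1a genes, an interaction fit for TE, crossed numbers, adjusted p, and leaving out each library. Exact intervals of rate ratios and Wilson intervals of shares are at 95%, and a count of 0 allows 3 reads. All intervals cover counting error only. Transcript sequences and coordinates came from GENCODE M21 (GRCm38), promoters from RefSeq. Ugt1a8 was not analysed here.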

Additional observations from a re-analysis of the deposited data

Results flagged for a closer look

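In the interaction fit over the 8 libraries (limma), 8 members had a difference between HB and HF that was unlike in RNA-seq and Ribo-seq, beyond 2 on the log2 scale and with an unadjusted p under 0.05. Over all 9455 genes, 153 were higher and 415 lower by the same rule. The values are RPF minus mRNA log2 fold changes on the log2(RPKM + 1) scale, with limma's Benjamini-Hochberg adjusted p of the interaction. Of these members, Ugt1a5, Ugt1a1, Gstm4 and Ugt1a6a were lower in this measure, at -4.52 for Ugt1a5 (adjusted p = 0.161), -2.41 for Ugt1a1 (adjusted p = 0.202), -2.22 for Gstm4 (adjusted p = 0.161) and -2.20 for Ugt1a6a (adjusted p = 0.241). Sult1d1 was at 2.20 (adjusted p = 0.282). None passed an adjusted p under 0.05. The value of Ugt1a5 was -8.17 with a pseudocount of 0.1 in place of 1, so its size depends on that constant. The other three rest on 3 to 6 RPF reads in all, and their fitted values also depend on the added constant and are no measure of size: -3.61 for Sult2a7 and -2.18 for Gsta2, which had 0 RPF reads in HB, and 3.81 for Sult5a1.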

How the results depend on the processing

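The number of members called moved with the processing. As analysed, 5 members were higher and 0 lower in mRNA, 1 higher and 3 lower in RPF, and 1 higher and 5 lower in TE. In mRNA, higher members numbered 1 without a filter, 13 with a common median, 9 in voom and 16 by adjusted p, and lower members numbered 1 with a common sum and 2 by adjusted p. In RPF, higher members numbered 0 at a minimum of 5 RPKM, 2 with a common median, 4 in voom and 0 by adjusted p, and lower ones 0, 1, 1 and 0 in that order, with 8 under a common sum. In TE, higher members numbered 0 at a minimum of 5 RPKM, 2 in voom, 2 in the interaction fit, 2 with crossed numbers and 0 by adjusted p, and lower ones 3 at that minimum, 12 with a common sum, 8 in voom, 2 with Ugt1a merged and 0 by adjusted p. The counts over all genes moved too: TE lower calls were 435 as analysed, 1346 with a common sum, 438 in voom and 179 at the minimum of 5 RPKM, and mRNA higher calls were 246 as analysed, 77 without a filter and 392 in voom. The replicate numbers did not pair the libraries (correlation of deviations -0.104 in mRNA and -0.014 in RPF across groups), and a fit with the replicate block gave 14 higher and 3 lower in mRNA and 2 higher in TE, beside 498 and 1229 in mRNA and 133 in TE over all genes, and Sult1d1 was among the members lower in mRNA. A crossed replicate block, chosen after seeing the data, gave 13 higher and 2 lower in mRNA, beside 474 and 1303 over all genes.

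Median log2 fold changes moved as follows. In mRNA, UGT was 0.54 at a minimum of 5 RPKM and 1.49 in voom, and GST was 0.95 with a common median and 0.92 in voom. In RPF, UGT was -0.85 with a common sum, 0.32 with a common median, 0.28 in voom and 0.18 with Ugt1a merged, SULT was -1.04 with a common sum and 0.15 with a common median, and GST was -0.84 with a common sum. In TE, a common sum gave -1.72 for UGT, -0.57 for SULT and -1.14 for GST, and no filter gave 0.53 for SULT. Log2 ratios of summed RPKM under a common sum were 0.38 for GST mRNA and -0.77, -1.03 and -0.46 for UGT, SULT and GST in RPF. The common sum scales by RPKM totals, which were 1088500 and 1253721 in HF and 1738581 and 2642062 in HB Ribo-seq. Signs turned with a common median and in voom for the RPF of Gstm4 (0.040 and 0.10), Gstm7 (0.034 and 0.18), Ugt1a1 (0.29 and 0.088) and Ugt1a6a (0.32 and 0.092), and for the mRNA of Ugt2b34 (0.26 and 0.22) and Ugt2b36 (0.13 and 0.089), none of which was called. The cause was not tested.

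Leaving out 1 library gave 5 to 13 higher mRNA members (9 without HF1, 9 without HF2, 13 without HB2) and 1 lower, whichever library was left out, while all genes called higher numbered 169 without HF1, 245 without HF2, 252 without HB1 and 503 without HB2. It gave 0 to 2 higher RPF members (0 without HF1, 2 without HB1 or HB2) and 1 to 6 lower (1 without HF1 or HF2, 6 without HB1, 5 without HB2), and 1 to 3 higher TE members (3 without HF2, 2 without HB1) and 2 to 9 lower (2 without HF1, 3 without HF2, 9 without HB2). Over all genes the RPF lower calls ran from 413 without HF1 to 2517 without HB1 and the TE lower calls from 114 without HF1 to 1252 without HB1. Medians ran from 0.61 to 0.78 (GST mRNA), -0.21 to 0.45 (GST RPF), -0.83 to -0.12 (GST TE), -0.82 to -0.19 (SULT mRNA), -0.26 to 0.41 (SULT RPF), 0.11 to 1.36 (SULT TE) -0.20 to 0.19 (UGT RPF), 0.69 without HB1 to 1.42 without HB2 (UGT mRNA) and -1.31 without HB2 to -0.40 without HB1 (UGT TE, -0.58 without HF1). Members that changed sign ran from -0.049 to 0.18 (Gstm1 mRNA), -0.82 to 0.026 (Sult2a8 mRNA), -0.51 to 0.48 (Ugt2b34 mRNA), -0.83 to 0.26 (Gstm4 RPF), -0.99 to 0.40 (Gstm7 RPF), -0.40 to 0.32 (Ugt1a1 RPF), -0.23 to 0.22 (Ugt1a6a RPF) and -1.19 to 0.11 (Ugt3a1 RPF). A group left with 1 library was taken to vary like the other.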
